A study of Mus musculus with 3 samples.

Results

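The interferon-inducible GTPases of the mouse inguinal fat depot were followed here in stromal cells that carry preadipocyte transcripts. The set holds 10 of the 32285 genes in the count tables. 5 are guanylate-binding proteins (Gbp2, Gbp3, Gbp5, Gbp6 and Gbp7) and 5 are immunity-related GTPases (Iigp1, Igtp, Ifi47, Irgm1 and Irgm2). They were selected on measured values, since their summed UMIs (molecular tags that each mark 1 captured transcript) were higher in preadipocyte-gated cells than in progenitor-gated cells, and higher in preadipocytes rich in Cd44 mRNA, so values along those contrasts are given as descriptions without a test. The study profiled sorted stromal cells of fat by droplet single-cell RNA sequencing, to resolve stages between stem-like progenitors and preadipocytes. There was 1 group of 3 libraries, each from wild-type male C57BL/6J mice 8 weeks of age, with no treatment. Cells came from the collagenase-digested stromal vascular fraction (the non-adipocyte cells) of the subcutaneous inguinal depot, and the sort kept those without surface CD31 and CD45, which mark endothelial cells and leukocytes. The sources give 3 mice for 3 libraries, so each library is called a mouse here.

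Guanylate-binding proteins are large GTPases, and immunity-related GTPases are smaller ones, that act in cell-autonomous defence by assembling on membranes around intracellular pathogens. Interferon-γ binds the receptor chains Ifngr1 and Ifngr2 and signals through the kinases Jak1 and Jak2 to GAS elements in promoters, and the transcription factor Irf1 is among the genes induced. Type I interferons act on another promoter element, the ISRE, and many of these GTPases answer both kinds of interferon. Iigp1 and Ifi47 are effectors that coat pathogen vacuoles, whereas Irgm1, Irgm2 and Igtp sit on host membranes and hold the effectors in check.

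To show the DNA around the starts of these genes, promoter windows of 300 bases (250 bases before the start site) were taken from RefSeq on the GRCm38.p6 build. 8 members had 9 windows. Windows were searched on both strands for GAS (TTCNNNGAA, which reads the same on either strand) and for a core of the ISRE (GAAA, any 2 bases and GAAA again, which reads TTTC, any 2 bases and TTTC from the other strand). GAS was found in windows of 4 members and the ISRE core in windows of 7, whereas 8.30% and 3.44% of all 32851 windows held them. Both occurred in the windows of Gbp5, Gbp7, Igtp and Irgm2, and in 0.454% of all windows. The window of Ifi47 held neither set of letters. A match is a description of letters, not of a bound site. The stretches around the matches are shown because members within each family differ in which motifs they carry. Capitals mark the matched letters, and each stretch runs 5′ to 3′ on the strand of the gene.
Gbp2: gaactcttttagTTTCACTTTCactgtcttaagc
Gbp3: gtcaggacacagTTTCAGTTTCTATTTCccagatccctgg
Gbp5: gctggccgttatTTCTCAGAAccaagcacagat
Gbp7: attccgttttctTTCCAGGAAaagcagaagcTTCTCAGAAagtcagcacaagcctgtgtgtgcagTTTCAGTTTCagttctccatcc
Igtp: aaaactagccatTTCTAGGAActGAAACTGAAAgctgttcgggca
Irgm2: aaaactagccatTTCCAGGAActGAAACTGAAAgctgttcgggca
Irgm1: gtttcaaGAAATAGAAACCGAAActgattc

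The Gbp2 stretch lay at chr3:142620592-142620625, Gbp3 at chr3:142559987-142560026, Gbp5 at chr3:142496870-142496902 and Gbp7 at chr3:142530218-142530304, all on the plus strand. The Gbp5 stretch shows 1 of its matches, since its other GAS match and its ISRE core began 245 and 165 bases before the start site, outside it. The Igtp stretch lay at chr11:58199499-58199543 and the Irgm2 stretch at chr11:58214890-58214934, both on the plus strand, and Irgm1 at chr11:48871428-48871457 on the minus strand. In the GENCODE annotation, which starts some of these genes upstream of the RefSeq start, 24 of the 34 bases shown for Gbp2 and 30 of the 30 for Irgm1 lay in exons. In Gbp3 and in Irgm1 a pair of overlapping ISRE cores shared bases. In Igtp and Irgm2 the GAS and ISRE matches stood side by side in the same arrangement. These stretches of 45 bases differed at 1 base, T16C with Igtp first and positions counted from the 5′ end, and the whole windows were 82.3% identical. Igtp and Irgm2 overlap on the same strand in the annotation, so their UMIs could be assigned to the wrong gene of the pair, and Ifi47 (chr11:49076587-49096974) overlaps Olfr56. Gbp6 also overlaps Gm43302 and Gbp7 overlaps Gm43802. Gbp6 (chr5:105270702-105293698) and Iigp1 had no window in the table.

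The libraries held 13698, 6872 and 16220 barcodes, of which 12984, 6414 and 15179 had more than 500 genes and less than 5% mitochondrial UMIs. Median depth of these cells was 7392.5, 12192.5 and 6667 UMIs, so mouse 2 had the fewest and deepest cells. Between 37 and 59 kept barcodes were shared by pairs of libraries, and doublets were not called. Gates on raw UMIs then gave 2300, 1489 and 1946 preadipocytes (Icam1 plus Fabp4 at least 4, Dpp4 at most 1), 7426, 3193 and 9312 progenitors (Dpp4 plus Pi16 at least 3, Icam1 plus Fabp4 at most 1) and 319, 503 and 500 regulatory cells (Clec11a and Fmo2 at least 1, Fabp4 and Dpp4 at most 1). All 6 preadipocyte markers tested were higher in the preadipocyte than in the progenitor gate (median log2 difference 3.19), and all 6 progenitor markers were lower (median −3.53). The preadipocyte gate also held RNA of genes used as markers of other cell types. The 8 endothelial markers summed to 36.3, 64.0 and 4.96 CPM (UMIs per 1000000 UMIs of the summed cells) against 8.84, 2.92 and 3.00 in progenitors, the 7 mural markers to 64.8 to 105 against 17.2 to 26.8 CPM, and the 10 leukocyte markers to 5.26 to 7.69 against 4.02 to 8.53 CPM. The mural sum need not stand for mural cells alone. In the regulatory gate the mural marker Abcc9 was at 41.7, 41.8 and 80.4 CPM, where Rgs5 was at 0.571, 0.565 and 1.61 CPM. A list of 14 genes known to rise during tissue dissociation summed to 24039 to 29258 CPM in preadipocytes and 15230.3 to 18756 CPM in progenitors. The part of these in the differences between gates was not tested.

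Every member was higher in the preadipocyte gate than in the progenitor gate in 3 of 3 mice, which follows from how the set was chosen. Of all genes tested 28% were higher and 28.6% lower in preadipocytes by edgeR. UMIs were summed over the cells of a gate in each mouse and given as CPM, which can be compared between gates for 1 gene but not between genes. The effector Iigp1 was at 408, 293 and 413 CPM in preadipocytes of mice 1 to 3 and at 77.2, 51.5 and 61.2 CPM in progenitors, a log2 ratio of 2.55 ± 0.18 (SD, n = 3), or 5.87-fold. Ifi47, the other effector, was at 31.6, 52.6 and 37.9 against 11.1, 12.9 and 9.78 CPM, a log2 ratio of 1.83 ± 0.28. For both effectors the lowest preadipocyte value stood well above the highest progenitor value. The regulator Irgm1 was at 94.95, 129.8 and 91.7 against 24.8, 29.7 and 20.4 CPM, a log2 ratio of 2.08 ± 0.12, or 4.22-fold. The other regulators differed less, with log2 ratios of 0.56 ± 0.34 for Irgm2 and 0.47 ± 0.15 for Igtp. So among the regulators Irgm1 had the largest ratio in this contrast, which helped to choose the genes.

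Among the guanylate-binding proteins, Gbp2 was at 164, 138 and 177 CPM in preadipocytes and 57.2, 50.0 and 60.3 CPM in progenitors, a log2 ratio of 1.51 ± 0.04. Gbp6 gave a ratio of 1.24 ± 0.03, Gbp5 1.06 ± 0.35 and Gbp7 0.75 ± 0.20. Gbp3 had the smallest ratio. It was at 22.4, 20.2 and 18.7 against 19.7, 15.8 and 18.1 CPM, and it was the 1 member of the 10 whose values overlapped between the gates.

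**Figure D1:**
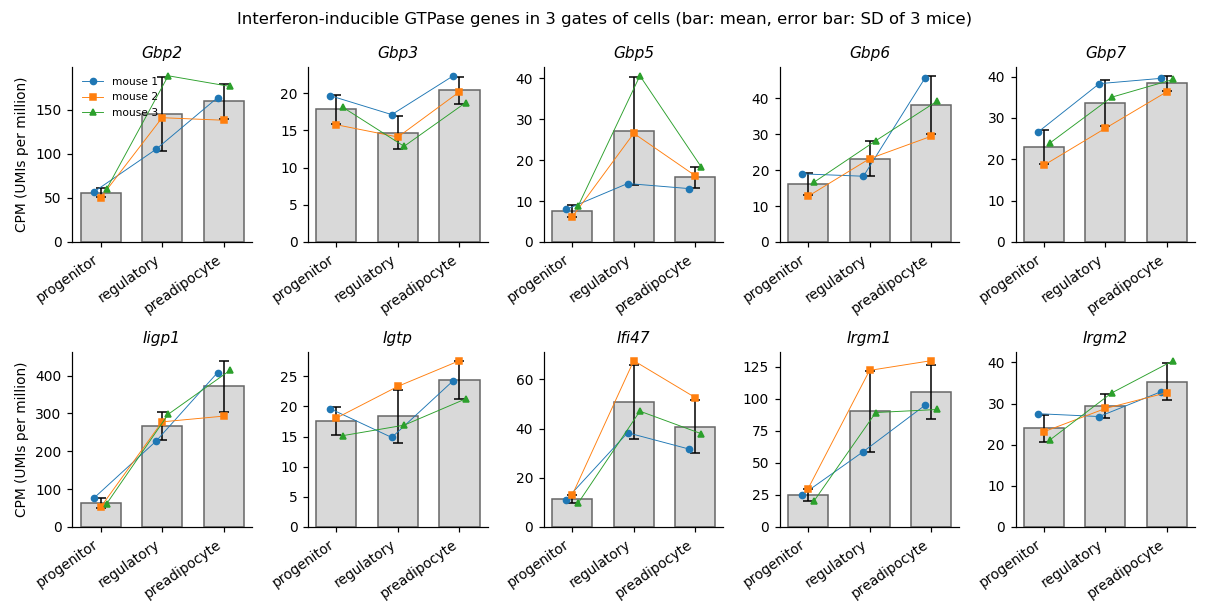
Summed level of each of the 10 GTPase genes in CPM (UMIs per 1000000 UMIs of the summed cells) on a linear axis in the progenitor, regulatory and preadipocyte gates, with 1 point per mouse, bars for the mean of 3 mice and error bars for the SD. Iigp1 and Irgm1 have the highest ratios of preadipocytes to progenitors, Gbp3 overlaps between them, and Gbp5 and Ifi47 are highest in the regulatory gate.

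The regulatory gate, which selects cells reported to restrain fat formation, held most members at levels near those of preadipocytes. Of the regulatory cells 22, 95 and 57 in mice 1 to 3 also passed the preadipocyte gate, so these cells were summed on both sides. Iigp1 was at 226, 278 and 298 CPM in regulatory cells of mice 1 to 3, above every progenitor value and overlapping the preadipocyte values. Irgm1 was at 58.8, 122 and 89.3 CPM and Gbp2 at 105, 141 and 189 CPM, and both overlapped the preadipocyte range. Gbp2 was higher in preadipocytes in only 1 of 3 mice. Gbp5, a guanylate-binding protein that promotes inflammasome assembly, had the other order. It was at 14.3, 26.6 and 40.6 CPM in regulatory cells and 13.04, 16.2 and 18.2 CPM in preadipocytes, higher in regulatory cells in 3 of 3 mice with overlapping ranges. Ifi47 was likewise at 38.3, 67.6 and 47.1 CPM in regulatory cells, above preadipocytes in each mouse. Gbp3, Gbp6 and Irgm2 were the 3 members higher in preadipocytes without overlap, at log2 ratios of 0.48 ± 0.09, 0.71 ± 0.53 and 0.26 ± 0.07. Of all genes tested in this contrast 25.3% were called in either direction by edgeR, which is not a measure of overlap. The share of all genes without overlap is not given for any contrast here, so nothing is read from counts of members without overlap. Regulatory cells were shallower, with median depths of 4815 to 10957 UMIs against 7257 to 12997 in preadipocytes.

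The mice did not rank alike for all members. In preadipocytes Iigp1 and Gbp6 were lowest in mouse 2, at 293 and 29.4 CPM, whereas Ifi47 and Irgm1 were highest in mouse 2, at 52.6 and 129.8 CPM. Mouse 2 was also the deepest library and had the highest endothelial sum. With 3 libraries these differences between mice were not tested.

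Cd44 at 2 or more UMIs against 0 divided the preadipocyte gate into 301, 348 and 337 cells against 1570, 795 and 1188. The study splits ICAM1-positive cells by CD44, in clusters and by sorting on the surface protein. The split here is on Cd44 mRNA, in a gate that also admits cells with Fabp4 and no Icam1. Its sides need not match the study's populations, and the split helped to choose the members. Gbp2 was at 273, 225 and 284 CPM in Cd44-rich and 124, 94.97 and 137 CPM in Cd44-negative preadipocytes, a log2 ratio of 1.14 ± 0.10 (SD, n = 3). Irgm1 was at 164, 223 and 142 against 77.3, 85.3 and 70.8 CPM (1.16 ± 0.20), and Gbp5 at 20.4, 34.2 and 31.2 against 10.3, 9.59 and 13.7 CPM (1.34 ± 0.44). Iigp1 was at 614, 467 and 566 against 334, 212 and 351 CPM (0.90 ± 0.22). In these 4 genes every Cd44-rich value stood above every Cd44-negative value. Gbp6 and Gbp7 did overlap, and Gbp7 was at 37.5, 42.5 and 47.6 against 38.2, 32.0 and 38.3 CPM, slightly lower in Cd44-rich cells of mouse 1. Of all genes tested 18.7% were called in either direction. Cd44-rich cells were deeper, with medians of 7558 to 13836 against 7096 to 12617 UMIs. Their endothelial sum was the smaller, at 1.17 to 3.10 against 7.17 to 101 CPM.

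Splits other than the contrasts that chose the genes were tested with edgeR's quasi-likelihood test on sums per mouse. The mouse was a block, with Benjamini-Hochberg adjustment over all genes. A gene passed at an adjusted p under 0.05. For these splits the share of all genes is given for higher genes only, so nothing is read from counts of lower genes. The splits within preadipocytes re-use the same cells, so they do not stand as independent of each other. The first asked whether the members sat with Icam1 or with Fabp4, a fatty acid carrier of later adipogenic cells. The gate that helped to choose the members rests on Icam1 plus Fabp4, so this split is not independent of that choice. Cells with Icam1 at 4 or more UMIs and little Fabp4 (414, 415 and 591) were set against cells with Fabp4 at 4 or more and no Icam1 (574, 256 and 274), and both kinds pass the preadipocyte gate. Cells that also pass the regulatory gate were all on the Icam1 side. Without them that side held 393, 327 and 539 cells. 9 of 10 members were higher on the Icam1 side, where 9.5% of all genes were higher, and their median log2 difference was 0.99 against −0.01 over all genes.

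Gbp5 had the widest gap, at 21.4, 26.9 and 31.9 CPM on the Icam1 side and 6.85, 7.98 and 6.22 CPM on the Fabp4 side, a log2 difference of 1.95 ± 0.192 (SE, adjusted p = 4.29e-06). Ifi47 was at 43.1, 71.2 and 47.0 against 23.0, 28.1 and 18.7 CPM, higher by 1.27 ± 0.131 (SE, adjusted p = 6.73e-06). Gbp2 was at 226, 168 and 199.9 against 111, 109.7 and 75.8 CPM, higher by 1.08 ± 0.124 (SE, adjusted p = 1.76e-05). In each of these genes all 3 mice were higher on the Icam1 side and the sides did not overlap. Irgm1 rose by 1.12, Gbp6 by 1.05, Iigp1 by 0.93, Irgm2 by 0.91, Igtp by 0.79 and Gbp3 by 0.74 on the log2 scale, all in 3 of 3 mice and without overlap. Gbp7 was at 38.0, 37.4 and 38.8 against 38.6, 29.5 and 30.6 CPM, a difference of 0.30 ± 0.128 (SE, adjusted p = 0.147) that did not pass, with mouse 1 lower on the Icam1 side. Without mouse 1 it was 0.44 with an edgeR adjusted p of 0.0415, over alternatives from 0.0415 to 0.856. Gbp3 was not called in 4 of 15 alternatives. Without mouse 2 it was at 0.60 (edgeR adjusted p = 0.0841), with thinned cells its edgeR adjusted p was 0.0893, without the mouse block 0.112 and by DESeq2 0.200. Igtp was not called in 1 of 15, by DESeq2 (adjusted p = 0.0888).

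The sides also differed in endothelial RNA. The endothelial sum was 102, 229 and 20.4 CPM on the Fabp4 side and 4.52, 2.31 and 1.44 CPM on the Icam1 side, where Tie1 and Emcn were at 0. Mural markers followed, at 84.7 to 223 against 53.2 to 88.0 CPM. Without cells holding a UMI of 7 defining markers of endothelial, mural or immune cells the members' median difference was 1.05, from 0.40 for Gbp7 to 2.15 for Gbp5. In that set 10 of 10 passed, and nothing is read from this count, since the share of all genes higher there is not given. That set of cells was chosen after seeing the data. Gbp7 was called in 2 of 15 alternatives, this one and that without mouse 1. It was not called without cells holding any endothelial, mural or leukocyte marker UMI. Such cells were 37.9 to 49.3% of the preadipocyte gate. Of the dissociation genes 7 of 14 were higher and 1 lower on the Icam1 side, with sums of 26073 to 30329 against 22475 to 27810.2 CPM, and 4 of 5 regulatory markers were higher. Their part in the result was not tested.

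The second split used Cxcl9, a chemokine that interferon-γ induces. Preadipocytes with at least 1 Cxcl9 UMI (330, 264 and 259) were set against those with none (1970, 1225 and 1687). Cxcl9 was itself higher in Cd44-rich than in Cd44-negative preadipocytes, by 0.77 on the log2 scale. That contrast helped to choose the members, so the Cxcl9 split is not independent of the choice. All 10 members were higher with Cxcl9, whereas 4.43% of all genes were higher. None of the 10 overlapped between the sides, and the share of all genes without overlap is not given. The members' median log2 difference was 1.63, with a median over all genes of −0.00. Iigp1 was at 1020.5, 685 and 1095 CPM with Cxcl9 and 301, 203 and 299 CPM without, a log2 difference of 1.85 ± 0.0400 (SE, adjusted p = 1.08e-13). Gbp5 was at 38.5, 33.4 and 44.0 against 8.60, 12.2 and 13.9 CPM, a difference of 1.79 ± 0.135 (SE, adjusted p = 3.41e-07). Gbp2 was at 411, 310.1 and 404 against 121, 98.8 and 138 CPM, a difference of 1.71 ± 0.0518 (SE, adjusted p = 8.40e-12). All 3 genes were higher in 3 of 3 mice by more than the spread between mice. Irgm1 was at 217, 280.0 and 206 against 73.8, 95.4 and 72.5 CPM, a difference of 1.60 ± 0.0517 (SE, adjusted p = 1.91e-11). The smallest differences were those of Irgm2, 1.18 ± 0.0974 (SE, adjusted p = 8.74e-07), and Gbp7, 1.20 ± 0.0939 (SE, adjusted p = 5.35e-07). Gbp6 (1.73), Igtp (1.66), Ifi47 (1.59) and Gbp3 (1.56) lay between.

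Cells with Cxcl9 were slightly deeper, with medians of 7585 to 13865.5 against 7220 to 12830 UMIs. Their endothelial sum was 175, 159 and 0.999 CPM against 12.1, 42.3 and 5.62 CPM, higher in mice 1 and 2 and lower in mouse 3. In mouse 3 the 4 cycling markers summed to 82.4 against 1.76 CPM. Of the 14 dissociation genes 6 were lower with Cxcl9, and they summed to 21941 to 26416 against 24519.5 to 29752 CPM. The part of the cycling and dissociation genes in the result was not tested. Without cells holding any endothelial, mural or leukocyte marker UMI all 10 members were still higher, by 1.20 (Irgm2) to 1.95 (Iigp1). The share of all genes higher in that set is not given. Without the mouse block Ifi47 and Irgm2 lost their calls, at edgeR adjusted p = 0.0591 and 0.0948, and each was called in 15 of 16 alternatives.

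**Figure D2:**
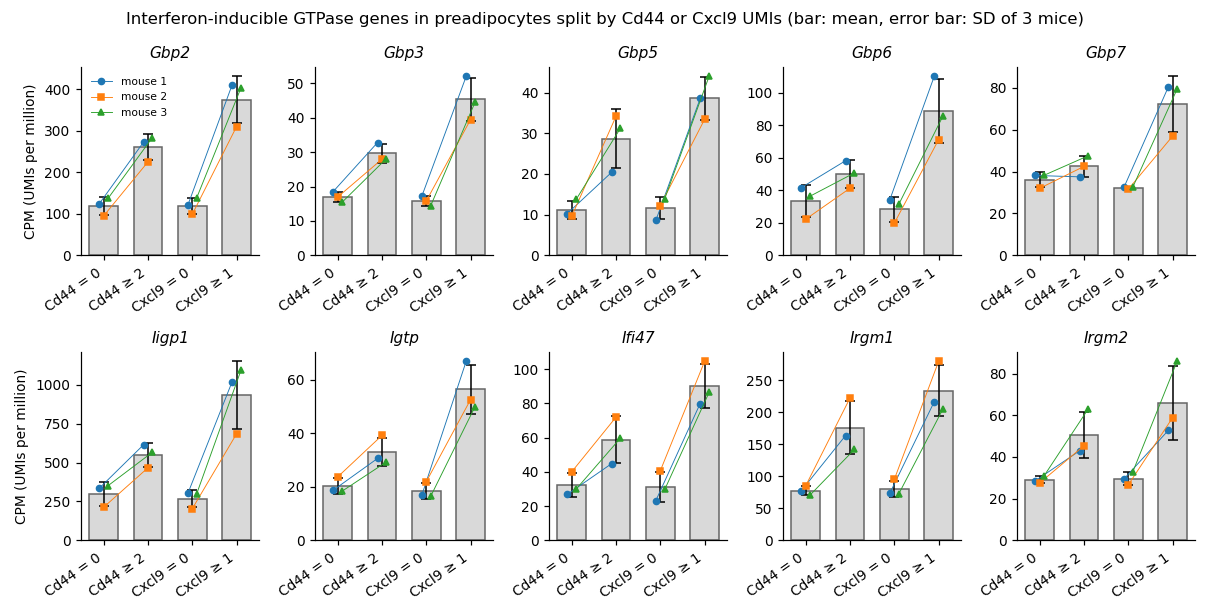
Level of each GTPase gene in CPM (UMIs per 1000000 UMIs of the summed cells) on a linear axis on both sides of the Cd44 and Cxcl9 splits of the preadipocyte gate, with 1 point per mouse bars for the mean, error bars for the SD (3 mice) and lines joining both sides of a split in 1 mouse. In the Cxcl9 split Iigp1 has the widest log2 difference and Irgm2 the smallest. In the Cd44 split Gbp6 and Gbp7 overlap between the sides.

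The Cd44 split was then applied in the progenitor and regulatory gates. No progenitor passed the preadipocyte gate, where this split helped to choose the genes. Of the regulatory cells 22, 95 and 57 did pass it, so that gate was not wholly apart from the choice. In progenitors (557, 279 and 818 Cd44-rich cells), 4 of 10 members were higher, where 3.06% of all genes were higher. Iigp1 was at 92.5, 105 and 103 CPM in Cd44-rich and 70.8, 46.7 and 53.7 CPM in Cd44-negative progenitors, a log2 difference of 0.80 ± 0.112 (SE, adjusted p = 0.00191). Irgm1 was at 31.7, 46.7 and 32.4 against 23.7, 28.4 and 18.2 CPM, a difference of 0.64 ± 0.0881 (SE, adjusted p = 0.00171). Both were higher in 3 of 3 mice without overlap and called in 15 of 16 alternatives, the exception being the fit without the mouse block (edgeR adjusted p = 0.468 for Iigp1 and 0.975 for Irgm1). Gbp3 was higher by 0.52 ± 0.121 (SE, adjusted p = 0.0301), and Gbp2 by 0.28 ± 0.0575 (SE, adjusted p = 0.0176), each in 3 of 3 mice. Both were less stable. Gbp2 was at edgeR adjusted p = 0.146 without mouse 1 and 0.0621 without mouse 3, over alternatives 0.00507 to 1.00. Gbp3 was at 0.0506 without mouse 3, over alternatives 3.35e-05 to 0.786. Gbp5 did not pass, at 0.70 (adjusted p = 0.0781), but passed without mouse 1 (adjusted p = 0.0404) and without mouse 3 (0.0429), as did Gbp7 without mouse 1 (0.0228). Gbp6 stood at -0.02 (adjusted p = 0.961) and Igtp at 0.04 (adjusted p = 0.913). Cd44-rich progenitors had cycling marker sums of 22.6, 88.9 and 1.82 CPM against 4.32, 4.73 and 3.99 CPM, and 6 of 14 dissociation genes were lower in them, 4 of 5 regulatory markers were higher, and mouse 2 had a leukocyte sum of 33.8 CPM. The part of these in the result was not tested.

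In the regulatory gate Cd44-rich cells were few, 36, 147 and 81, against 211, 249 and 303. 6 of 10 members were higher, where 4.08% of all genes were higher, and the members' median log2 difference was 0.88. Iigp1 was at 284, 383 and 453 CPM in Cd44-rich and 172, 179 and 239 CPM in Cd44-negative cells, a difference of 0.99 ± 0.105 (SE, adjusted p = 1.18e-09). Gbp6 was at 26.9, 31.1 and 53.7 against 15.8, 16.6 and 21.9 CPM, a difference of 1.05 ± 0.239 (SE, adjusted p = 0.00271). These were the called members without overlap. Without the mouse block the 6 lost their calls (edgeR adjusted p = 0.232 for Iigp1 and 0.315 for Gbp6). Irgm1 was higher by 1.13 ± 0.153 (SE, adjusted p = 3.77e-07), Gbp2 by 0.89 ± 0.133 (SE, adjusted p = 3.09e-06), Gbp5 by 1.18 ± 0.241 (SE, adjusted p = 7.10e-04) and Ifi47 by 0.60 ± 0.169 (SE, adjusted p = 0.0219), each in 3 of 3 mice with overlapping ranges. The calls of these 4 were lost without mouse 2. Then 2 of 10 members were called, and the share of all genes higher in that fit is not given. There the edgeR adjusted p-values were 0.197 for Irgm1, 0.126 for Gbp2, 0.533 for Gbp5 and 0.351 for Ifi47. Over all alternatives they ranged up to 0.253 for Irgm1, 0.530 for Gbp2, 0.675 for Gbp5 and 0.876 for Ifi47. Without mouse 3 Gbp6 stood at 0.93 (0.0684) and Ifi47 at 0.53 (0.213), while Irgm2 passed (0.0221), and Igtp passed without mouse 1 (0.0149). Some regulatory cells (22, 95 and 57) also passed the preadipocyte gate. Without cells that pass 2 gates, an alternative chosen after seeing the data, 6 members were still higher, with Iigp1 at 1.19 and a median of 0.96. The share of all genes higher in that alternative is not given. Cd44-rich regulatory cells were deeper, with medians of 6405 to 12435 against 4029 to 9699 UMIs. They were lower in 3 of 5 regulatory markers, among them Mgp (-1.03) and F3 (-0.69), and the 5 summed to 2055 to 2571 against 2806 to 3483 CPM. They were also lower in 7 of 14 dissociation genes, with sums of 20985 to 23351 against 26439.7 to 27346 CPM. The part of depth and of these genes in the result was not tested.

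Where the Cd44 split was compared between regulatory cells and progenitors by an interaction term, the difference passed for 1 member, where 1.12% of all genes were higher. In mice 1 to 3, 27, 24 and 39 cells passed both of these gates, so the gates were not fully separate. Gbp6 had the larger split in regulatory cells, by 1.16 ± 0.287 (SE, adjusted p = 0.0409). Its call was lost without any of the 3 mice (edgeR adjusted p = 0.208, 0.253 and 0.162) and held in 3 of 16 alternatives. Gbp2 stood at 0.67 (adjusted p = 0.111), and passed without mouse 3 at 0.93 (adjusted p = 0.0211, over alternatives 0.000389 to 1.00). Among the others Irgm1 passed under 1 alternative. In the same test the interferon-induced genes Cxcl10 (1.62), Ifit1 (1.48) and Rsad2 (2.23) passed in the direction of Gbp6. The regulatory markers Mgp (-1.82) and F3 (-1.43) and the heat shock gene Hspa1b (-0.66) differed in the other direction. The part of these genes in the result was not tested.

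A further split took cells by the type I interferon-induced genes Ifit1, Ifit3 and Rsad2. These 3 genes were themselves higher in Cd44-rich than in Cd44-negative preadipocytes, by 1.64, 0.84 and 0.86 on the log2 scale. The split of preadipocytes is therefore not independent of the choice of the members. Cells with 3 or more UMIs of these 3 genes were set against cells with none. All 10 members were higher in both gates, whereas 8.29% of all genes were higher in preadipocytes and 2.57% in progenitors. In preadipocytes (198, 250 and 143 positive cells) Iigp1 was at 1571, 962 and 1791 CPM against 216, 111 and 208 CPM, a log2 difference of 3.15 ± 0.0593 (SE, adjusted p = 2.44e-18). Gbp7 had the smallest difference, at 102, 78.3 and 119 against 25.6, 24.7 and 27.9 CPM, or 2.01. None of the 10 overlapped, and the share of all genes without overlap is not given. The members' median difference was 2.80. In progenitors (334, 249 and 292 positive cells) the median was 2.53. Iigp1 was again first, at 393, 207 and 499 against 48.9, 28.2 and 37.8 CPM, or 3.23 ± 0.113 (SE, adjusted p = 4.47e-12). Iigp1 in these positive progenitors overlapped its level in the whole preadipocyte gate. Positive cells were deeper, with medians of 7693 to 14482.5 UMIs in preadipocytes and 7518.5 to 13591 in progenitors, against 7185 to 12742 and 6594.5 to 11745. In mouse 2 the positive preadipocytes had an endothelial sum of 150.3 CPM against 31.5 CPM. Without the 7 defining markers the differences ran from 1.99 to 3.19. In positive preadipocytes 6 of 14 dissociation genes were lower and 2 higher, and their part was not tested.

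Gbp2 was the member whose split differed between the gates. In progenitors it was at 154, 87.2 and 208 CPM in positive and 49.6, 46.3 and 51.4 CPM in negative cells, a difference of 1.56 ± 0.134 (SE, adjusted p = 4.97e-07), the smallest of the 10 there. In preadipocytes it was at 671, 425 and 639 against 96.7, 66.0 and 106 CPM, a difference of 2.82 ± 0.0610 (SE, adjusted p = 1.96e-17). The interaction term for Gbp2 was 1.28 ± 0.196 (SE, adjusted p = 0.00238), the split being wider in preadipocytes in 3 of 3 mice, and it was called in 14 of 15 alternatives (0.99 to 1.58, adjusted p = 6.49e-32 to 1.00). 1 of 10 members passed, where 2.25% of all genes passed in that direction. The members were chosen as higher in preadipocytes than in progenitors, so a comparison between these gates is not independent of that choice. Iigp1 stood at -0.06 (adjusted p = 0.924), and Irgm1 at 0.42 (adjusted p = 0.389), passing without mouse 3 at 0.76 (adjusted p = 0.0254, over alternatives 0.00568 to 1.00). Irf1 also had a wider split in preadipocytes, by 1.15 ± 0.161 (SE, adjusted p = 9.49e-04). Irf1 differed by 1.38 in preadipocytes and 0.22 in progenitors. Cxcl10 (2.36), Jak2 (0.71) and Jak1 (0.50) were among the other genes that passed in this direction. Of the dissociation genes Hspa1a (-1.10), Hspa1b (-0.84), Ier2 (-0.75), Fos (-0.70) and Jun (-0.58) passed in the other direction, and Fosb (0.35) in this one. The part of these genes in the result was not tested.

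**Figure D3:**
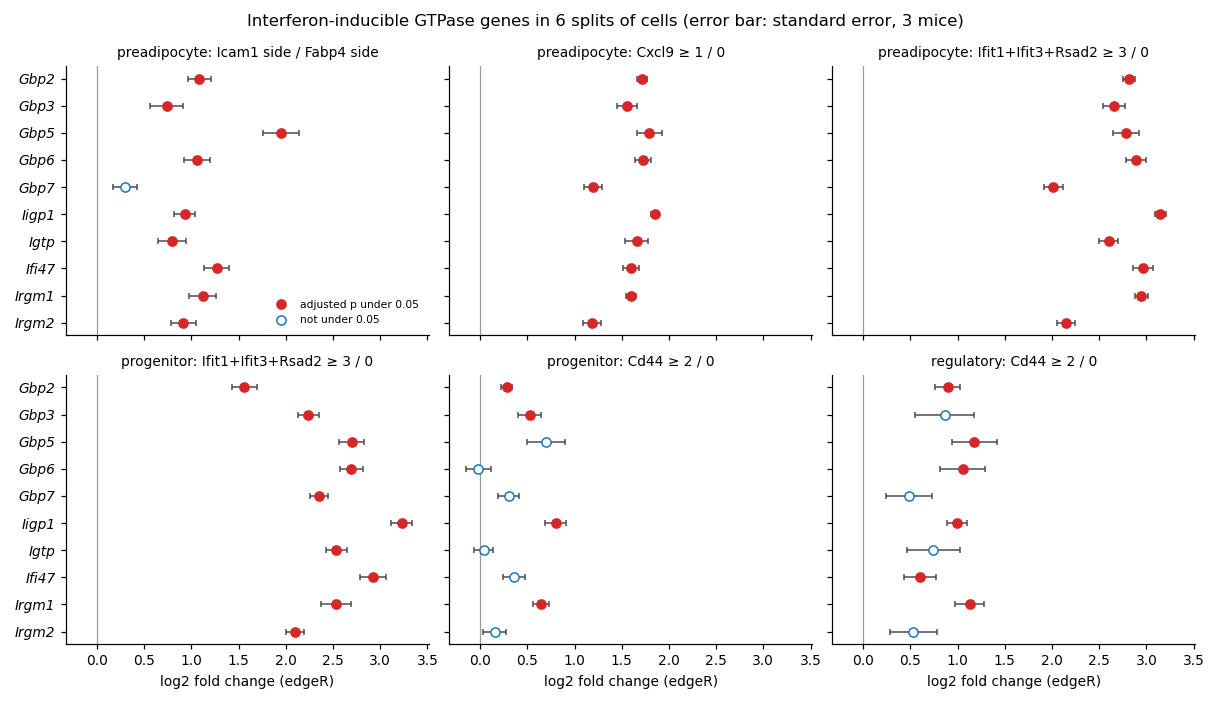
Log2 difference of each GTPase gene in 6 splits of cells, with points for the edgeR estimate (filled where the adjusted p was under 0.05) and bars for its standard error (3 mice). Differences are widest in the type I interferon splits, all 10 are above 0 in the Cxcl9 split, and Gbp6 lies near 0 in the Cd44 split of progenitors but above 1 in that of regulatory cells.

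Within the preadipocyte gate the transcripts were unevenly spread over cells. The contrast of preadipocytes with progenitors helped to choose the genes, so the higher preadipocyte values here follow from that choice. Each cell was thinned to 3000 UMIs to remove depth, which left out 167 of 5735 cells. The mean number of member UMIs per cell was 2.56 ± 0.189 (SD over 3 mice), against 0.769 ± 0.0759 in progenitors and 2.13 ± 0.396 in regulatory cells. At least 1 member UMI was found in 58.6 ± 1.47% of preadipocytes, 41.4 ± 3.13% of progenitors and 56.6 ± 9.22% of regulatory cells. The shares with 5 or more were 16.7 ± 0.677%, 2.24 ± 0.309% and 14.4 ± 3.01%. The variance of the summed member UMIs was 9.38 times their mean in preadipocytes, 7.66 times in regulatory cells and 3.11 times in progenitors. This ratio can rise with the mean, and the part of the mean in it was not tested. The 10% of preadipocytes with the most member UMIs held 55.4% of them (55.1 to 55.5% over mice). This share was similar in the other gates, at 51.7% in progenitors (48.8 to 55.1%) and 53.3% in regulatory cells (46.1 to 61.0%). Single preadipocytes reached 48 to 73 member UMIs of 3000. Preadipocytes with Cxcl9 had 6.18 ± 0.940 member UMIs per cell and those without had 1.94 ± 0.149.

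Single members were seen in smaller shares of cells. Iigp1 had a UMI in 25.8 to 30.0% of thinned preadipocytes and 9.14 to 13.6% of thinned progenitors. Before thinning the same cells gave 38.8 to 42.8% and 18.3 to 24.5%. Irgm1 was seen in 17.7 to 20.6% of thinned preadipocytes and 4.84 to 7.16% of progenitors (31.6 to 43.7% and 9.78 to 21.3% before thinning). Gbp3 was seen in 4.88 to 5.89% and 4.25 to 5.25% (11.2 to 19.6% and 10.7 to 14.6% before thinning), shares that overlapped between the gates. No cell type known to lack these genes was gated, so free RNA in the droplets was not measured for them.

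**Figure D4:**
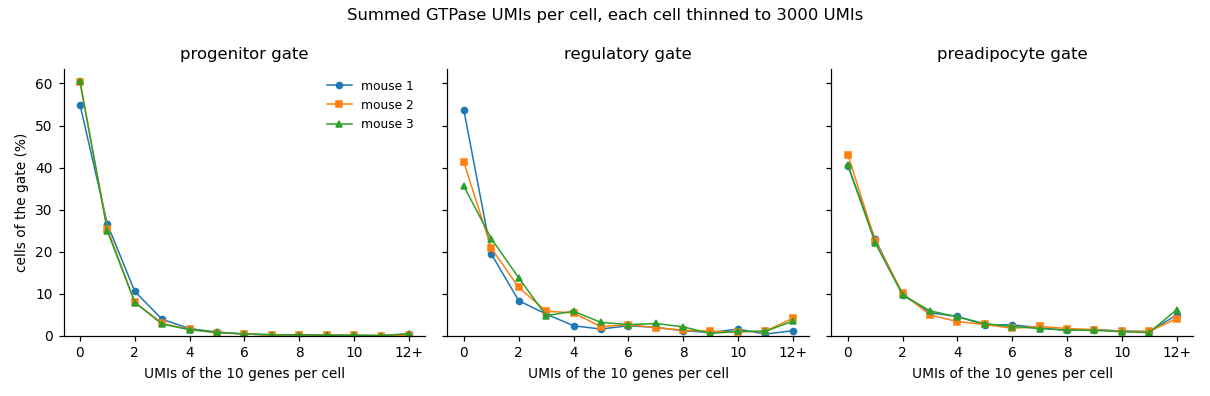
Distribution of the summed UMIs of the 10 GTPase genes per cell after thinning each cell to 3000 UMIs, as percent of cells, in each gate, with a line per mouse and 12 or more UMIs pooled. Progenitors fall off after a few UMIs, whereas preadipocytes and regulatory cells keep a tail. The contrast of preadipocytes with progenitors helped to choose the genes, and Iigp1 had the most of these UMIs in preadipocytes. Cells at 5 or more were 16.7% of preadipocytes and 14.4% of regulatory cells (means of 3 mice).

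Pairs of members were weakly and positively correlated over cells. Over the 45 pairs the mean Pearson r of log-transformed thinned UMIs was 0.173 in preadipocytes (0.162 to 0.184 over mice, 1454 to 2240 cells each) and 0.0853 in progenitors (0.0654 to 0.110). These are descriptions over cells that share a library, and in sparse counts a weak correlation is no finding. The strongest pair was Iigp1 and Irgm1, the effector and its regulator, at 0.416. Gbp2 and Iigp1 followed at 0.375, then Gbp2 and Irgm1 at 0.316 and Iigp1 and Ifi47 at 0.295. Gbp5 and Irgm2 gave the lowest r, 0.0796. Set against the sum of the other 9 members, r was highest for Iigp1 (0.514), Irgm1 (0.438) and Gbp2 (0.412) and lowest for Gbp3 (0.195). Iigp1, Gbp2 and Irgm1 also had the most UMIs in preadipocytes, at mean levels of 371, 160 and 105 CPM. Gbp3 and Gbp5 had the fewest, at 20.4 and 15.8 CPM. The part of abundance in r, between members or between gates, was not tested.

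**Figure D5:**
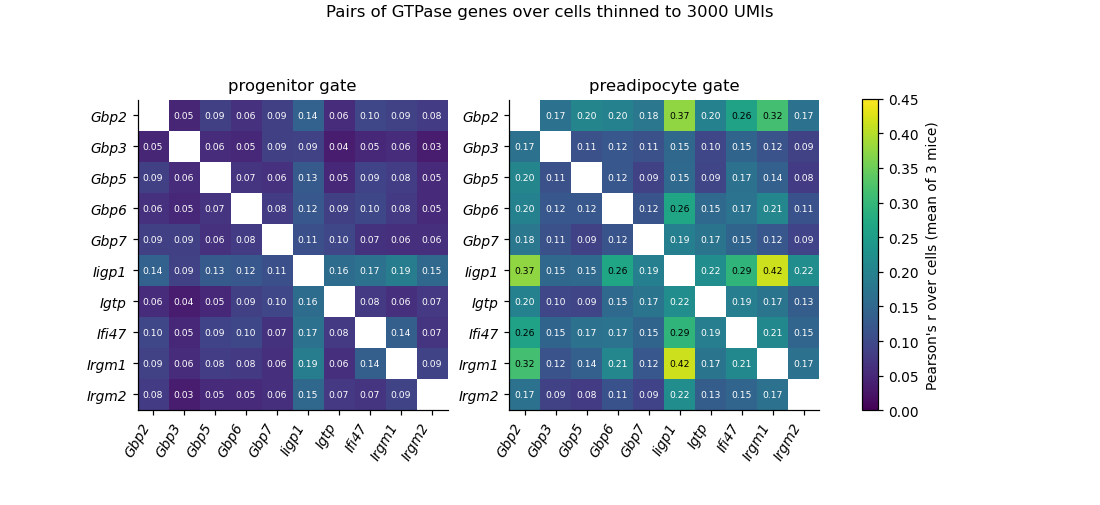
Pearson r between log-transformed UMIs of each pair of GTPase genes over cells of the progenitor and preadipocyte gates thinned to 3000 UMIs, as the mean of 3 mice. In preadipocytes Iigp1, Irgm1 and Gbp2 form the strongest pairs, up to 0.416, and Gbp5 with Irgm2 is the weakest at 0.0796.

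In the summed UMIs of the members over preadipocytes Iigp1 had the most. Outside the set, the genes most like this sum were ranked among 4915 genes with at least 20 CPM in each mouse. The first was Ifi203, a nucleic acid-binding interferon-inducible protein, with a mean r of 0.477 over 3 mice. Ifit1, an RNA-binding antiviral protein, followed at 0.470, and the chemokine Cxcl10 at 0.423. Then came Isg15, a ubiquitin-like modifier (0.376), Irf1 (0.361), Cxcl9 (0.355) and the metallothioneins Mt1 (0.332) and Mt2 (0.328), which bind metals. The metallothioneins are known for induction by metals and glucocorticoids, and the others for induction by interferon.

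The rest of the pathway was read from lists of known interferon genes. Between preadipocytes and progenitors, 7 of 10 other tested GTPases of these families were higher and 1 lower. Tgtp2, an immunity-related effector, was higher by 3.85. The single lower gene was Gbp9, at -0.49. Gm4841 (1.87), F830016B08Rik (1.76), 9930111J21Rik2 (0.84) and Gm4951 (0.64) were also higher, and Irgq stood at 0.01. Tgtp2 has a near-identical copy, Tgtp1, so its counts are uncertain. This contrast chose the members, and 28% of all genes were higher and 28.6% lower in it, so nothing is read from its counts.

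Of 19 receptor and signalling genes tested, 14 were higher in preadipocytes and 3 lower, where 28% of all genes were higher and 28.6% lower. This is the contrast that chose the members, so nothing is read from its counts here either. The receptor chain Ifngr2 was higher by 0.94, and Ifngr1 by 0.47. Downstream, Jak2 was higher by 0.27, whereas Jak1 was lower, at -0.20. Irf1 was higher by 1.09, and Socs1, a feedback inhibitor, by 0.89. Other interferon-γ targets were divided, with 12 of 25 higher and 6 lower, beside the same 28% and 28.6% of all genes. Cxcl9 was higher by 4.57, while Cxcl10, a related chemokine, stood at 0.03. Type I interferon-induced genes were also divided, with 11 of 26 higher and 9 lower, where 28% and 28.6% of all genes were. Ifit1 was higher by 1.21 and Ifit3 by 0.88, Rsad2 was lower at -0.98, and Isg15 stood at 0.28. The ligands themselves were near absent from the data. None of 10 interferon genes passed the count filter, and Ifng had 1 UMI in the preadipocyte gate, 17 in the progenitor gate and 1 in the regulatory gate.

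With Cxcl9 in the preadipocyte, 8 of 10 other GTPases, 13 of 19 receptor and signalling genes, 15 of 21 other interferon-γ targets and 20 of 25 type I interferon-induced genes were higher, where 4.43% of all genes were. Cxcl10 rose by 2.78 and Ifit1 by 2.52. Tgtp2 rose by 1.81 and Gbp9 by 1.74, the latter against its direction between gates. Irf1 rose by 0.98 ± 0.0401 (SE, adjusted p = 4.01e-10), with Socs1 (0.85) and Jak2 (0.52). The receptor chains did not pass, at 0.08 (adjusted p = 0.484) for Ifngr1 and -0.10 (adjusted p = 0.609) for Ifngr2. On the Icam1 side of the other preadipocyte split, 8 of 18 receptor and signalling genes and 12 of 22 type I interferon-induced genes were higher, whereas other interferon-γ targets gave 7 higher and 4 lower of 21, where 9.5% of all genes were higher. In Cd44-rich regulatory cells 4 of 15 receptor and signalling genes and 7 of 18 type I interferon-induced genes were higher, where 4.08% of all genes were. In Cd44-rich progenitors 3 of 18 receptor and signalling genes were higher, where 3.06% of all genes were, and 1 of 25 type I interferon-induced genes, a share near that background.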

How the data were processed

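Droplet 3′ single-cell RNA sequencing of 3 libraries was used. The deposited matrices hold UMI counts (molecular tags, 1 per captured transcript) for each barcode and gene, made by the authors with Cell Ranger on mm10. The processing notes name version 2.1.1 and the matrix header 4.0.0. Total counts per library were 95899433, 79801002 and 100846072. The count rows were used as deposited, with no column of another sample. Cells were kept and gated on raw UMIs, and UMIs were summed per mouse and gate. edgeR 4.0.16 in R 4.3.3 gave the tests (quasi-likelihood, TMM scaling, the filterByExpr count filter, Benjamini-Hochberg over all genes), with the mouse as a block because both sums of a pair came from 1 library. Deviations of sums of the same mouse correlated at 0.180 to 0.678. The genes that define a split were not counted in it, and the study's own test over single cells was not used, since cells of 1 mouse are not replicates. With the mouse as a block, the p-values measure how differences within a mouse varied over 3 libraries, not the spread of levels between libraries. On simulated counts for the Cxcl9 comparison over 11470 genes, 83 of 100 genes changed by 1 and 98 of 100 changed by 2 on the log2 scale were recovered, with 6 false calls.

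The members, lists and splits were chosen with earlier results of these data known. Genes named were the 10 members in each comparison, other GTPases of these families reaching 5 CPM in a gate, fixed interferon pathway genes (1 of them is not reported here) and the 8 genes most like the members over cells. Promoter windows came from RefSeq on GRCm38.p6, and 32158 gene identifiers were found in the GENCODE M21 annotation. Alternatives were DESeq2 1.42.0, other size factors, no count filter, no block, each mouse left out, other limits on mitochondrial UMIs, depth and thresholds, thinning, and leaving out cells with markers of other types. Gbp11, Gm12250, Cxcl11, Mx1 and Mx2 were not analysed here.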

Additional observations from a re-analysis of the deposited data

Results flagged for a closer look

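The gap in Gbp2 between cells with and without type I interferon-induced transcripts was wider in preadipocytes than in progenitors by 1.28 on the log2 scale, tested by an interaction term in edgeR (adjusted p = 0.00238, wider in 3 of 3 mice). The contrast of these gates helped to choose the members, so this result is not independent of that choice. The gap in Gbp6 between Cd44-rich and Cd44-negative cells was wider in regulatory cells than in progenitors by 1.16 (edgeR adjusted p = 0.0409). In mice 1 to 3, 27, 24 and 39 cells passed both of these gates. The Gbp6 difference was called in 3 of 16 alternatives and lost its call without any 1 mouse, at adjusted p-values from 0.162 to 0.253. In the same test the interferon-induced genes Cxcl10 (1.62, edgeR adjusted p = 0.0136), Ifit1 (1.48, 0.0197) and Rsad2 (2.23, 0.0284) passed in the direction of Gbp6. The regulatory markers Mgp (-1.82, edgeR adjusted p = 0.000132) and F3 (-1.43, 0.00814) and the heat shock gene Hspa1b (-0.66, 0.0127) differed in the other direction. The part of these genes was not tested.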

How the results depend on the processing

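No called log2 difference of a member changed sign under any alternative run in the 8 tested comparisons. Of 1238 values of members there, 1124 kept their direction and side of the threshold, 60 lost a call, 18 gained one and 36, none of them called in the edgeR results given, changed sign. Those 36 fell in both Cd44 splits and in both differences between gates. In the regulatory Cd44 split Gbp7 went to -0.29 with thinned cells and Irgm2 to -0.25 without mouse 2. The counts of all genes called moved more, and where they did the cause was not tested. In this order for the Icam1 against Fabp4, Cxcl9, progenitor Cd44, regulatory Cd44 and preadipocyte type I interferon splits, edgeR called 1625, 618, 642, 468 and 1207 genes. DESeq2 called 728, 319, 309, 102 and 590, and the fit with no replicate block, which drops the pairing of sums within a mouse, 432, 25, 1, 2 and 117. Cells thinned to 3000 UMIs gave 905, 348, 325, 208 and 630. For the progenitor type I interferon split, the difference of that split between gates and the difference of the Cd44 split, edgeR called 395, 315 and 166 genes, and without the replicate block 87, 1 and 0, the last with 1359 genes at an unadjusted p under 0.05 in the blocked edgeR fit. DESeq2 gave 568 for the type I interferon difference, and thinning gave 150 and 94 for the differences. For preadipocytes against progenitors, against regulatory cells and split by Cd44, edgeR called 7568, 3387 and 2122 genes, without the block 4009, 1470 and 1. Thinning gave 2253 and 927 for the last pair, and DESeq2 804 for the Cd44 split.

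With no low-count filter, 1259 genes were called in the progenitor Cd44 split, 611 in the progenitor type I interferon split, and 729 and 378 in the differences of the type I interferon and Cd44 splits. Without cells holding endothelial, mural or leukocyte UMIs the Icam1 against Fabp4 split gave 974, the Cxcl9 split 383, the regulatory Cd44 split 278 and the Cd44 difference 80. Cells of 5000 to 15000 UMIs gave 156 and 64 for the regulatory Cd44 split and the Cd44 difference. The regulatory Cd44 split gave 191 with the stricter threshold and 262 without cells in 2 gates, chosen after seeing the data. Leaving out 1 mouse gave 361 to 897 for the progenitor Cd44 split, 178 to 534 for the regulatory Cd44 split, 767 to 993 and 342 to 509 for the type I interferon splits of preadipocytes and progenitors, 98 to 279 and 17 to 68 for the differences of the type I interferon and Cd44 splits, 2089 to 2602 for preadipocytes against regulatory cells, 6099 to 6583 against progenitors, 1075 to 1678 for the preadipocyte Cd44 split, 1161 to 1883 for the Icam1 against Fabp4 split and 445 to 697 for the Cxcl9 split. Thinning to 2000 UMIs gave a mean r between members of 0.139. Outside the members, Cxcl9 on the Icam1 side reversed to -0.0513 in cells of 5000 to 15000 UMIs. In the regulatory Cd44 split, leaving out 1 mouse gave -0.17 (without mouse 2) to 1.70 for Gm4951 and -0.82 (without mouse 2) to 2.98 for Cxcl9, which was at -1.02 in the depth window. In the Cd44 difference Cxcl9 ran from -2.24 (without mouse 2) to 1.20. Without the replicate block all 10 members kept their calls in both type I interferon splits and 8 of 10 in the Cxcl9 and in the Icam1 against Fabp4 splits, while the members called in the Cd44 splits and in the differences lost theirs.

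Depth limits the rarer members: in mouse 1 the 36 Cd44-rich regulatory cells held 4 UMIs of Gbp5 and 2 of Igtp. The gates depend on single UMIs of a few genes, so cells near a limit can fall on either side. Intervals between mice rest on 3 libraries.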
